A study of Mus musculus with 6 samples.

Results

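The endothelium-enriched cells of the caudal-half tissue of the mouse embryo were compared with those of the heart tube and the yolk sac together. These cells were 2 of the 6 arrays of the study, and the comparison ran over all 18193 genes that had a probe set of their own. Caudal-half values were set against the mean of the heart tube mean and the yolk sac mean, each from 2 arrays. Genes were also sought in which the caudal-half tissue lay beyond the nearer of the other tissues. The mice of all 3 groups were of mixed background with Wt in their sample codes, at stage E9.5, and without treatment or culture. Tissue was dissociated freshly, and cells positive for CD31 and negative for CD41 and CD45 were sorted by flow cytometry. Each group held 2 independent biological replicates on Affymetrix mouse arrays. The sources used here do not give the number of embryos behind a replicate.

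Values are natural logs of the signals as deposited, taken to be the log2 values of the authors' RMA, and every level or difference below is on that scale. If the signals are linear instead, each difference and standard error grows by a factor of 1.44 while the limma tests do not change. Replicate arrays correlated at r = 0.981 to 0.986 over all probe sets other than controls. Caudal-half arrays correlated with heart tube arrays at 0.961 to 0.969 and with yolk sac arrays at 0.954 to 0.963. Probe sets for bacterial RNAs, used here only to describe weak signals, read 1.33 to 4.03. The signal at the 3' end of the Gapdh control transcript exceeded that at its 5' end by 1.67 and 1.58 on the caudal-half arrays, and by 1.81 to 2.04 on the other 4. This gap reflects RNA integrity and labelling, it was smallest in the caudal-half tissue, and its part in the results was not tested.

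The trunk and tail of the embryo at this stage hold the paired aortae, the cardinal veins and the vessels that lead to the yolk sac and placenta. Part of this endothelium is haemogenic and will bud off the first blood stem cells. Hox genes give axial position to the cells around and within these vessels. Primordial germ cells migrate through the hindgut of the same region at this time, and they too carry CD31 on their surface, so a sort on CD31 can retain them.

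The sort genes and the endothelial genes were measured first. Pecam1, which encodes CD31, read 10.08 and 9.83 in the caudal-half tissue, within the span of the other 4 arrays. Ptprc, which encodes CD45, read 2.74 and 2.85, within the range of the bacterial controls. Itga2b, which encodes CD41, was lower than the mean of both tissues by -0.97 ± 0.17 (SE, n = 2 arrays per tissue, limma adjusted p = 0.027). The yolk sac made most of that difference (-1.67 against the yolk sac and -0.26 against the heart tube), and the call was lost whichever single array was left out (highest limma adjusted p 0.134). Of 30 pan-endothelial genes, none read within the bacterial range in any tissue. Their median difference was 0.30 (0.55 against the heart tube and -0.21 against the yolk sac), beside 0.05 over all genes. The genes called higher were Cldn5, a tight junction claudin (1.62), Emcn, a sialomucin of veins and capillaries (1.10), Ecscr (0.88) and Cd34 (0.83). Those called lower were Clec14a (-1.44), Calcrl, a receptor of adrenomedullin (-1.12), the angiopoietin receptor Tek (-0.98), the TGF-beta co-receptor Eng (-0.90) and Ramp2, the partner of Calcrl (-0.67). These were 13.3% and 16.7% of the 30, beside 2.67% and 3.22% of all genes. None of the 9 passed beyond both tissues. Cldn5 differed from the yolk sac by -0.15 and Clec14a from the heart tube by 0.006, so each was set by 1 tissue. In Emcn, Calcrl and Eng the caudal-half arrays lay beyond all 4 others. Of the 30 genes, 4 lay above all other arrays and 4 below, beside 13.9% and 8.72% of all genes. Without the first caudal-half array 0 of the 30 were called in either direction.

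Over all 18193 genes, 486 (2.67%) lay above the mean of the other tissues and 585 (3.22%) were lower, at a limma adjusted p under 0.05. Every count of called list members is to be read beside these shares. A difference from the mean can come from 1 tissue alone. Of the higher genes 196 differed from the yolk sac only and 106 from the heart tube only, and of the lower genes 265 and 161. For 28 of the higher and 100 of the lower genes the tissues lay on opposite sides of the caudal-half tissue. A stricter test therefore took the larger of the p-values against each tissue where the directions agreed. Against the heart tube alone 482 genes (2.65%) were higher and 520 (2.86%) lower, and against the yolk sac alone 767 (4.22%) and 885 (4.86%). The stricter test called 38 genes (0.209%) higher than both tissues and 47 (0.258%) lower than both. These were 7.82% of the genes higher than the mean and 8.03% of the genes lower than it. The 2 comparisons behind this test share the caudal-half arrays. Without a test, both caudal-half arrays lay above all 4 others for 2522 genes (13.9%) and below them for 1586 (8.72%). For a gene called beyond both tissues such a gap nearly follows from the call. It is given below as description only.

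The difference from the nearer tissue had a median of 2.12 among the 38 higher genes and -1.93 among the 47 lower ones. The smallest called difference from the nearer tissue was 1.18, and the median standard error of a difference between 2 tissues was 0.210. The yolk sac was the nearer tissue for 27 of the 38 higher genes and the heart tube for 11. Among the 47 lower genes the heart tube was nearer for 28 and the yolk sac for 19. In 9 of the higher genes (Sox2, Zic2, Hoxd1, Hoxb5os, Nanog, Lonrf3, Srpx2, Miat and Ybx2) both other tissues read within the bacterial range, so the size of the difference is taken against a level near background. In 4 of the lower genes the caudal-half mean did. A second probe set existed for 43 of the 85 genes, and 96 of those 98 probe sets differed in the same direction, the exceptions being 1 each for Dnajb4 and Rab3il1. The calls depended on the array number. Without the first caudal-half array or the first heart tube array limma called 0 genes beyond both tissues, although all 85 kept their direction and an unadjusted p under 0.05 in both settings. The counts without the second caudal-half array were 19 higher and 16 lower. They were 7 and 4 without the second heart tube array, 3 and 10 when yolk sac array 1 was dropped, and 13 and 14 without array 2. Against the mean, the counts fell to 95 higher and 133 lower without the first caudal-half array, and to 174 and 275 without the second. Leaving out a heart tube array gave 208 and 302 (the first) or 231 and 308 (the second), and 281 and 423 were left when yolk sac array 1 was dropped.

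**Figure D1:**
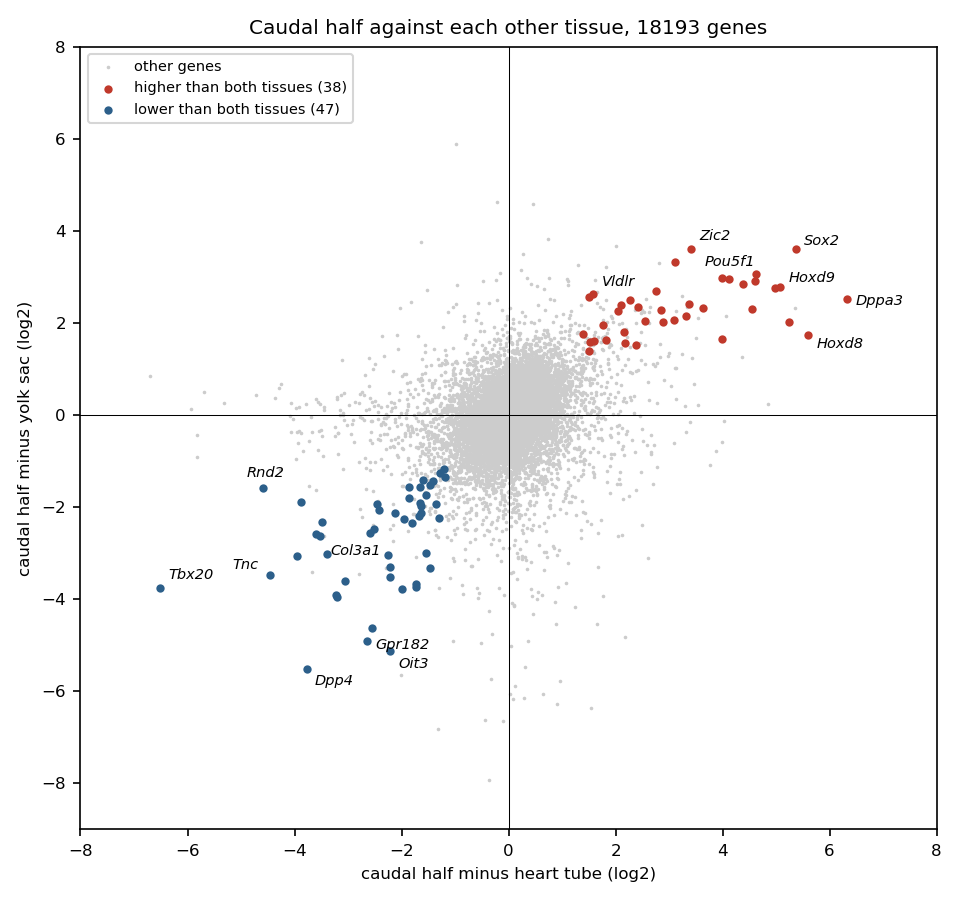
Each point is 1 of 18193 genes, with the caudal-half mean minus the heart tube mean (log2) across and the caudal-half mean minus the yolk sac mean (log2) upward. The 38 genes higher than both tissues (red) lie in the upper right, out to Sox2 and Dppa3, and the 47 lower than both (blue) in the lower left, out to Tbx20 and Dpp4. Both axes share the caudal-half arrays, so the points lean along the diagonal by construction.

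Genes of germ cells and pluripotent cells made up 8 of the 38 genes higher than both tissues. Of 30 measured members of that list, 20 were higher than the mean of both tissues and 0 lower, against 2.67% and 3.22% of all genes. Their median difference was 1.72 (2.27 against the heart tube and 1.12 against the yolk sac), beside 0.05 over all genes. Both caudal-half arrays lay above all 4 others for 23 of the 30, beside 13.9% of all genes. The leading members were the core pluripotency factors and the genes that specify primordial germ cells.

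The pluripotency factors come first. Sox2, an HMG-box factor of pluripotent, germ and neural progenitor cells, read 6.96 and 7.05 on the caudal-half arrays, 1.80 and 1.48 in heart tube cells and 3.90 and 2.91 in yolk sac cells. It differed from the nearer tissue by 3.61 ± 0.33 (SE), with both other tissues at background (limma adjusted p = 0.0131). Pou5f1, which encodes OCT4, read 8.08 and 7.63 against 3.71 and 3.75 in heart tube cells and a mean of 4.89 in yolk sac cells. The tissues did not overlap, and the nearer one lay 2.96 ± 0.21 below (limma adjusted p = 0.00843). Nanog, a homeodomain factor of the same network, read 6.75 and 6.91 against 2.62 and 2.29 in heart tube cells and 3.89 and 4.08 in yolk sac cells. It lay 2.85 ± 0.19 above the nearer tissue (limma adjusted p = 0.00812), and the heart tube arrays were again lowest.

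The promoters of Nanog and Pou5f1 are shown because OCT4 and SOX2 are known to act on both genes, and these promoters belong to members that were high together. The sequences are the 250 bases upstream of the first listed start in RefSeq (GRCm38.p6), for Nanog chr6:122707239-122707488 on the plus strand and for Pou5f1 chr17:35505782-35506031 on the plus strand. Capitals mark the octamer ATGCAAA and the SOX motif ACAATG on either strand.
Nanog: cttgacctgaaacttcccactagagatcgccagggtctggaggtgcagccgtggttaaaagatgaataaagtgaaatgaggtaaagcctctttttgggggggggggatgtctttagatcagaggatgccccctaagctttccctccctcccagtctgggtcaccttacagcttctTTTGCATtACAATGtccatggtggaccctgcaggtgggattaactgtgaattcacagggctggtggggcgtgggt
Pou5f1: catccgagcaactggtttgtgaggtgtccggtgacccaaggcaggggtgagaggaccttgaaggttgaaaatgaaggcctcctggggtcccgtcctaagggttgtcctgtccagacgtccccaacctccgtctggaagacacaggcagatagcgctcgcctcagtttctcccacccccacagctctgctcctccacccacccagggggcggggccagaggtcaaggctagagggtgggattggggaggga
In Nanog the octamer, here on the opposite strand, began 75 bases before the start and the SOX motif 67 bases before it, with 1 base between them. The Pou5f1 stretch held neither motif. Of 32851 promoters of this length, 4.12% held the octamer, 10.7% the SOX motif and 0.642% both. Promoters were on hand for 12 of the 20 called genes. Of the 16 promoters of these 12 genes, 4 held the octamer (3 genes), 4 the SOX motif (3 genes) and 2 both (1 gene).

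Genes of germ cell specification followed. Dppa3, also called Stella, a marker of primordial germ cells and the early embryo, read 9.68 and 9.52 against 3.35 and 3.20 in heart tube cells and 7.06 and 7.07 in yolk sac cells. Its arrays fell into 3 separate levels. The difference from the nearer tissue was 2.53 ± 0.17 (limma adjusted p = 0.00812). Prdm1, which encodes BLIMP1, the repressor that sets germ cell fate, read 7.45 and 7.57 against 4.57 to 4.76 in heart tube cells and 5.17 to 5.26 in yolk sac cells. It lay 2.29 ± 0.17 above the nearer tissue (limma adjusted p = 0.00843). Its partners Prdm14 and Tfap2c were higher than the mean of both tissues by 2.91 ± 0.33 and 2.84 ± 0.47 (limma adjusted p = 0.00652 and 0.0217). Neither passed beyond both tissues by its brightest probe set, although the caudal-half arrays lay above all others in each. A dimmer probe set of Tfap2c did pass, by 3.47 ± 0.35 (limma adjusted p = 0.0243 over all probe sets).

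Other members had similar patterns. Dppa5a, an RNA-binding protein of pluripotent cells, differed from the nearer tissue by 2.31 ± 0.21, Ifitm1, an interferon-induced membrane protein of early germ cells, by 2.33 ± 0.21, and the X-linked homeobox gene Rhox9 by 2.03 ± 0.23. Against the mean of both tissues, the pluripotency gene Zfp42 was higher by 2.19, Rhox6 by 2.18, Fut4, whose enzyme makes the SSEA-1 sugar of germ cells, by 2.03, and L1td1 by 1.83. Alpl, the alkaline phosphatase long used to stain germ cells, was higher by 1.61, Kit, the receptor that guides their migration, by 1.35, and Dppa2 by 1.33. Ifitm3 was called as well (0.84), but its caudal-half arrays (11.20 and 10.99) spanned those of the yolk sac (11.13 and 11.16).

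Of the 30 measured members, 10 were not called. Some are known for switching on after germ cells reach the gonad. The uncalled members not named here were mostly genes of early germ cells or pluripotency. Ddx4, the vasa helicase, read 1.68 and 1.68 in the caudal-half tissue, and Dazl 3.15 and 2.61, both within the bacterial range in all 3 tissues. Mael and Dnmt3l differed by -0.49 and 0.17. Rhox5 differed by -0.53, with the yolk sac highest. In all 20 called members the yolk sac mean lay above the heart tube mean. That order was not particular to this list. It held in 25 of 30 pan-endothelial and 18 of 19 epithelial genes, but in 1 of 17 endocardial and 2 of 23 cardiomyocyte genes. Among the 8 that passed beyond both tissues, limma called the yolk sac higher than the heart tube in 7, all except Prdm1.

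The summed linear level of the 30 genes was 11080 to 11335 on the caudal-half arrays, 2152 to 2314 in heart tube cells and 5960 to 6037 in yolk sac cells. In bulk samples like these, more cells of a type and more RNA per cell cannot be told apart. The part of primordial germ cells carried through the sort in this list, and in other genes higher in the caudal-half tissue, was not tested. Leaving out 1 array left 13 to 18 of the 30 called higher, the fewest without the first caudal-half array.

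**Figure D2:**
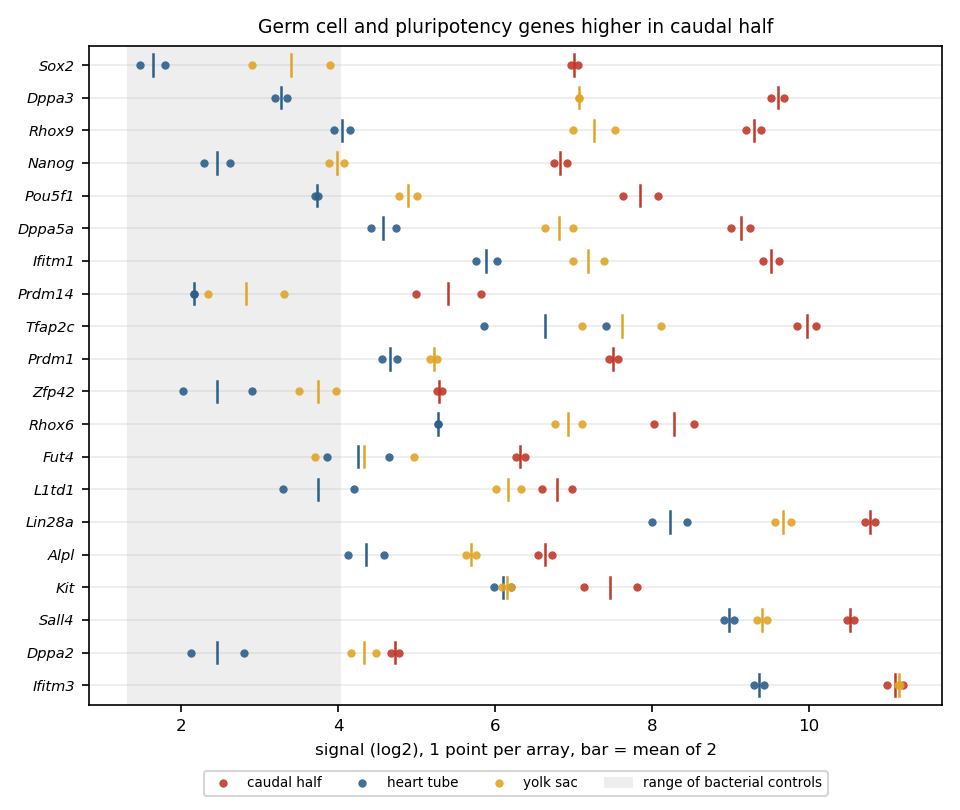
Signal (log2) of the 20 germ cell and pluripotency genes called higher than the mean of both tissues, 1 point per array and a bar at the mean of 2; grey marks the range of the bacterial controls (1.33 to 4.03). Caudal-half arrays (red) are farthest right in all but Ifitm3, and yolk sac means (yellow) lie to the right of heart tube means (blue) in all 20.

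Hox genes made up 6 of the 38 genes, and none passed in the lower direction. Against the mean of both tissues, the Hox genes called higher were 8 of 13 measured in paralogue groups 1 to 5, 7 of 10 in groups 6 to 9 and 4 of 10 in groups 10 to 13, and 0 were lower. The median differences were 1.47, 1.45 and 0.87, beside 0.05 over all genes. Without the first caudal-half array the counts fell to 2, 4 and 3.

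Among the anterior groups, Hoxd1 read 5.44 and 4.67 in the caudal-half tissue and 1.56 to 2.06 on the other 4 arrays, all within the bacterial range. It lay 3.10 ± 0.28 above the nearer tissue (limma adjusted p = 0.0131). Hoxd3, Hoxa3, Hoxa4 and Hoxa5 were higher than the mean by 1.51 to 2.39, with caudal-half arrays above all others. Hoxa2 was called too (0.78), though every array read it within the bacterial range. Hoxb5 and Hoxb4 were also called (1.55 and 1.03), but against the yolk sac Hoxb5 differed by -0.77 and Hoxb4 by 0.02, so these differences came from the heart tube. Hoxb1 split the caudal-half arrays, at 5.27 and 2.44, and was not called.

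Hoxd8 and Hoxd9 of the middle groups had the largest differences from the heart tube among the Hox genes. Hoxd9 read 8.81 and 8.92 against 3.88 and 3.70 in heart tube cells and 5.78 and 6.36 in yolk sac cells, and lay 2.79 ± 0.23 above the nearer tissue (limma adjusted p = 0.0109). Hoxd8 read 9.23 and 9.02 against 3.67 and 3.38 in heart tube cells and 7.17 and 7.61 in yolk sac cells, a difference of 1.73 ± 0.22 from the nearer tissue (limma adjusted p = 0.0375). Hoxb9 read 8.29 and 7.40, with all 4 other arrays between 5.08 and 5.23, and differed from the nearer tissue by 2.69 ± 0.29. In these genes no caudal-half array overlapped another tissue, and the yolk sac was called above the heart tube for Hoxd8 and Hoxd9 but not for Hoxb9. Hoxa9 was higher than the mean by 3.48 ± 0.41 and did not pass beyond both tissues by its brightest probe set. Its other probe set read 7.30 and 7.12 against 4.40 to 4.75 and did pass, by 2.56 ± 0.20 (limma adjusted p = 0.0167 over all probe sets). Hoxc8 went another way. It read 4.76 and 4.84 on the caudal-half arrays, 2.28 and 2.34 in heart tube cells and 7.17 and 7.21 in yolk sac cells, so its difference from the mean was 0.05.

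Of the posterior groups, Hoxc10 read 8.03 and 6.98 against 2.95 and 2.80 in heart tube cells and 4.39 and 4.48 in yolk sac cells. It lay 3.07 ± 0.33 above the nearer tissue (limma adjusted p = 0.0223), and both caudal-half arrays stood above all others. Hoxa10 read 6.27 and 6.30 against 2.92 to 4.34 elsewhere and differed by 2.07 ± 0.23. Hoxd10 and Hoxa11 were higher than the mean by 2.34 and 1.70. Hoxa13, Hoxb13, Hoxc13 and Hoxd13 were not called, with differences of 0.06 to 0.23. A transcript from the strand opposite Hoxb5, Hoxb5os, read 6.28 and 6.67 against 2.48 to 3.83 elsewhere and was 2.99 ± 0.27 above the nearer tissue (limma adjusted p = 0.0131).

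**Figure D3:**
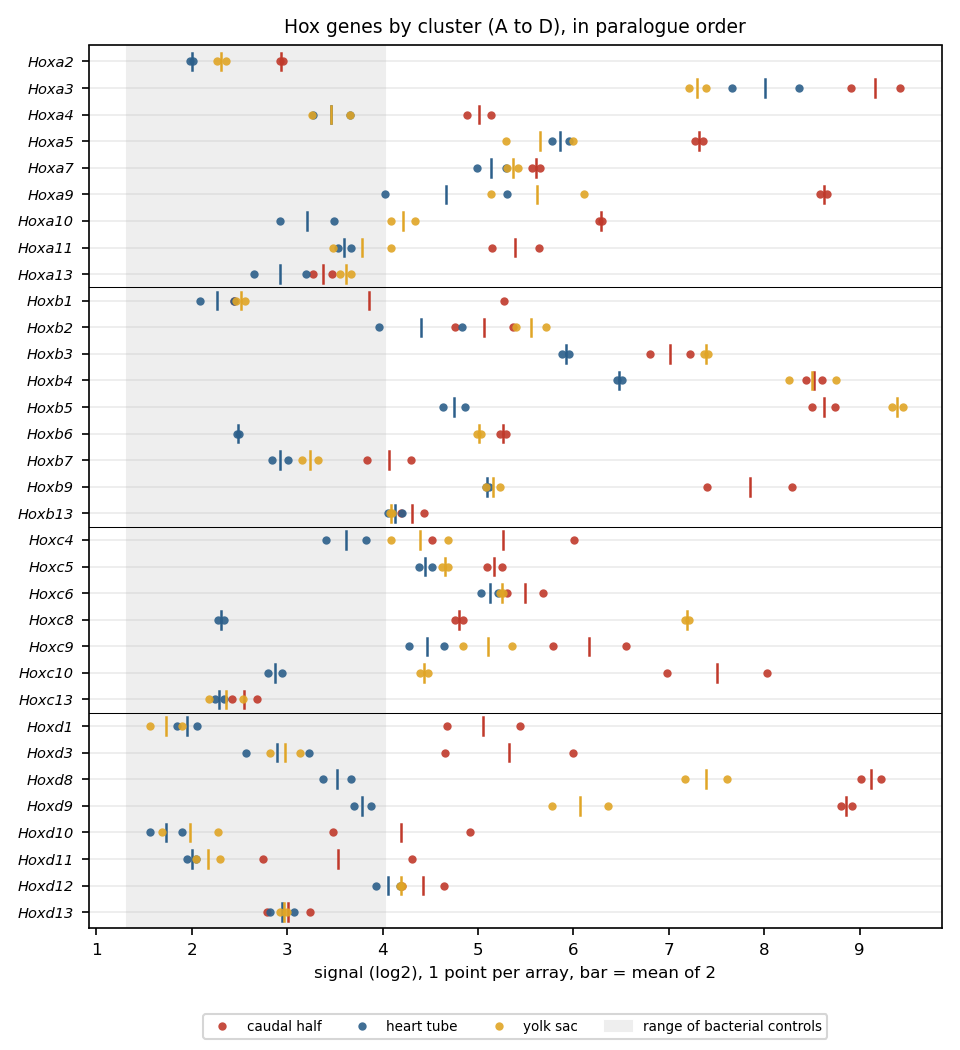
Signal (log2) of the measured Hox genes, by cluster A to D and in paralogue order from top to bottom, 1 point per array and a bar at the mean of 2; grey marks the range of the bacterial controls. Caudal-half points (red) stand apart on the right for Hoxd8, Hoxd9, Hoxa9, Hoxb9, Hoxc10 and Hoxa10, while Hoxb5 and Hoxc8 are highest in the yolk sac (yellow) and all group 13 members lie close together.

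The proteins that bind DNA together with Hox factors did not share that direction. Meis2, a TALE homeodomain cofactor of Hox proteins, read 7.12 and 7.51 against 9.15 and 9.38 in heart tube cells and 9.57 on both yolk sac arrays. It was lower than both tissues by at least -1.95 ± 0.20 (limma adjusted p = 0.0173). Meis1 was lower than the mean by -1.04 (limma adjusted p = 0.0334), a call lost in 5 of 6 settings with 1 array left out. Of the 17 measured genes of the list of cofactors and Hox regulators, Irx3 was higher and Meis1, Meis2 and Irx5 were lower, and the median difference was 0.01. For the caudal regulator Cdx2 the probe sets disagreed. The brighter one read 5.46 and 4.34 against 3.17 to 4.57 elsewhere and was not called (0.91 ± 0.43). The other read 5.70 and 5.47 against 3.02 to 3.72, all within the bacterial range, and lay 2.00 ± 0.19 above the nearer tissue (limma adjusted p = 0.022 over all 34945 probe sets of single genes). Of 24 tailbud genes, 2 were higher, the retinoic acid hydroxylase Cyp26a1 (2.03) and Sp8 (1.54), and 9 of the 24 read within the bacterial range in the caudal-half tissue. Neither tailbud gene was called without the first caudal-half array.

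Among neural genes 7 of 29 were higher and 2 lower than the mean of both tissues, against 2.67% and 3.22% of all genes, with a median of 0.17. Zic2, a zinc finger factor of the early neural tube, read 5.39 and 5.67 against 1.75 to 2.34 on the other 4 arrays. It lay 3.42 ± 0.23 above the nearer tissue (limma adjusted p = 0.00812). Irx3, a homeodomain factor of neural and mesodermal patterning, read 6.82 and 6.33 against 3.94 to 4.52 and differed by 2.35 ± 0.28 (limma adjusted p = 0.0294). Both stood clear of the other tissues on each array. Zic1, the N-cadherin gene Cdh2, Nes and Msi1 were called against the mean, although Msi1 lay below the heart tube (-0.98). A dimmer probe set of Cdh2 passed beyond both tissues (2.32 ± 0.19). The defining neural genes Sox1, Pax7, Olig2, Neurod1, Neurog2, Dcx and Nkx2-2 read within the bacterial range in all tissues, as did 13 of the 29 in all. Tubb3 and Ncam1 were lower (-1.85 and -1.64), with the heart tube highest. With 1 array left out, 4 or 5 of the 29 were called higher, the fewest without the first caudal-half array. The part of neural cells in Zic2, Irx3 and Sox2 was not tested.

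Genes of sprouting endothelium were led by Apln. This ligand of the apelin receptor, made by endothelial tip cells, read 7.30 and 7.76 on the caudal-half arrays, 2.63 and 3.23 in heart tube cells and 4.52 and 4.71 in yolk sac cells. The nearer tissue lay 2.91 ± 0.27 below it (limma adjusted p = 0.0131). Kcne3, a potassium channel subunit also found in tip cells, read 9.02 and 9.25 against 5.42 and 6.11 in heart tube cells and 6.69 and 6.75 in yolk sac cells, a difference of 2.42 ± 0.25 (limma adjusted p = 0.0192). No caudal-half array of either gene overlapped another tissue. The tip cell genes Esm1 and Pdgfb were higher than the mean by 2.55 and 2.28. Esm1 was 4.85 above the heart tube and 0.24 above the yolk sac, so it set the heart tube apart. The chemokine scavenger Ackr3 was lower than the mean (-1.78). It differed from the heart tube by -3.79 and from the yolk sac by 0.24, so it too set the heart tube apart. Of 20 measured genes of the list, 4 were higher and 2 lower (Robo1, -0.81, and Ackr3), against 2.67% and 3.22% of all genes. The median was 0.17, and neither lower gene was called without the first caudal-half array. Vegfa, Angpt2 and Col4a1, other members, differed by 0.04, 0.13 and -0.28 and were not called.

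Some glycolysis and hypoxia genes were higher, mostly by small amounts. Of 28 measured members 9 were higher and 0 lower than the mean of both tissues, against 2.67% and 3.22% of all genes. The median was 0.50, and both caudal-half arrays lay above all 4 others for 19 of the 28, beside 13.9% of all genes. Pdk1, the kinase that keeps pyruvate out of the mitochondria, read 9.14 and 9.51 against 7.55 and 7.91 in heart tube cells and 7.81 and 7.60 in yolk sac cells. It lay 1.60 ± 0.22 above the nearer tissue (limma adjusted p = 0.0493). Pfkp, a phosphofructokinase, read 8.22 and 8.26 against 6.68 to 6.85 elsewhere and differed by 1.40 ± 0.16 (limma adjusted p = 0.0232). Both stood apart on every array, but Pfkp lost its call with the mean of all its probe sets. The lactate exporter Slc16a3 (1.66), Hk2 (1.24), the glucose transporter Slc2a1 (0.84), Pgk1 (0.79), Tpi1 (0.78), Bnip3 (0.72) and Pkm (0.68) were called against the mean. Hk2 differed from the heart tube by 0.31 and from the yolk sac by 2.16. Vegfa, Car9 and Ero1a, further hypoxia genes, differed by 0.04 to 0.21 and were not called. The count fell to 1 of 28 without the second caudal-half array and was at most 6 in any setting with 1 array left out.

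The promoters of Pdk1 and Pfkp are shown because these 2 members passed beyond both tissues. The stretches are the 250 bases upstream of the first listed RefSeq start (GRCm38.p6), for Pdk1 chr2:71872974-71873223 on the plus strand and for Pfkp chr13:6648772-6649021 on the minus strand. Capitals mark the core of the hypoxia response element, ACGTG or GCGTG, on either strand.
Pdk1: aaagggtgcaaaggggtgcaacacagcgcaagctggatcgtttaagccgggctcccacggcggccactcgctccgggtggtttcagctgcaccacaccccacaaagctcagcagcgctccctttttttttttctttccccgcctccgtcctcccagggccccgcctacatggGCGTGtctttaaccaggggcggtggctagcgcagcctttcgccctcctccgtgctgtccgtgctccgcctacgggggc
Pfkp: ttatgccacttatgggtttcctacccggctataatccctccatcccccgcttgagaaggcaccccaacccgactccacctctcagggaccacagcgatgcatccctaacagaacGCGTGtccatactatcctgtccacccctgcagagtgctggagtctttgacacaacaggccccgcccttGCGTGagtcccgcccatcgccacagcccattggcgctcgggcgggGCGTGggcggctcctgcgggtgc
Pdk1 held 1 match, 78 bases before the start, and Pfkp held 3, at 136, 68 and 23 bases. Either motif occurred in 8 of the 11 promoters searched for the 9 called genes, and in 38.6% of all 32851 promoters. The 8 promoters belonged to 8 genes. In the called germ cell genes either motif occurred in 9 of 16 promoters. A match describes letters only.

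Genes of haemogenic endothelium and blood stem cells were called in both directions. Gfi1, a repressor needed for the endothelial to blood transition, read 5.70 and 5.35 against 4.34 and 3.08 in heart tube cells and 2.73 and 3.33 in yolk sac cells. It was higher than the mean by 2.15 ± 0.37 (limma adjusted p = 0.0251). Lmo2, a bridging factor of the blood and endothelial complex, read 10.28 and 10.42 against 8.24 to 9.09 and was higher by 1.68 ± 0.20 (limma adjusted p = 0.00814). Myb was higher by 1.47 ± 0.22 and Kit, listed here as well as among the germ cell genes, by 1.35 ± 0.22. In all 4 the caudal-half arrays lay above every other array, yet none passed beyond both tissues by its brightest probe set. The corepressor Cbfa2t3 (-1.22) and Meis1 (-1.04) were lower. Runx1, the master regulator of blood emergence, read 6.33 and 6.63 against 6.26 to 6.67 elsewhere and differed by 0.07 ± 0.16 by its brightest probe set. Of its 5 other probe sets 3 were called higher than the mean, by 0.86 to 2.97, among all 34945 probe sets of single genes. The one with the largest difference read 6.01 and 6.28 against 2.36 and 2.52 in heart tube cells and 4.19 and 3.63 in yolk sac cells, and passed beyond both tissues by 2.24 ± 0.24 (limma adjusted p = 0.0284). The Runx1 probe sets thus disagreed, and the counts of this list use the brightest. The median over the 19 measured members was 0.02, and without the first caudal-half array 1 of them was called higher. Leukocyte markers were weak in part. Of 15 measured, 9 were within the bacterial range in every tissue, and Coro1a was called (1.71). The summed linear level of the 15 was 920 to 1419 on the caudal-half arrays, 710 to 798 in heart tube cells and 529 to 589 in yolk sac cells.

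The other genes higher than both tissues came from none of these groups. Tmem255a, a membrane protein, read 9.83 and 9.57 against 4.48 to 7.33 elsewhere and differed by 2.77 ± 0.31. Tbx1, the T-box factor of the pharyngeal region, read 7.18 and 7.03 against 4.53 to 5.16 and differed by 2.26 ± 0.24 (limma adjusted p = 0.0194). Piezo2, a channel opened by mechanical force, read 9.58 and 9.69 against 6.20 to 7.58 and differed by 2.15 ± 0.18 (limma adjusted p = 0.0109). None of the 3 overlapped another tissue, which the call itself nearly requires. Lonrf3 differed from the nearer tissue by 2.10 and the secreted glycoprotein gene Stc2 by 2.05. Porcn, the acyltransferase that readies WNT proteins for secretion, differed by 2.04 and the growth factor gene Pdgfa by 2.01. The remaining genes differed by 1.38 to 1.80, namely Bok, Srpx2, St8sia4, Klf5, the lipoprotein and reelin receptor gene Vldlr, Ybx2, Ier3, Miat, Enpp3 and Sncg. Ybx2 is an RNA-binding protein of germ cells and was not on the germ cell list. All 5 other probe sets of Vldlr were higher in the same direction, but its call was lost with the mean of all its probe sets.

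Ier3 is an immediate early gene, a class that responds to tissue dissociation. It read 8.63 and 8.76 against 6.34 and 6.28 in heart tube cells and 7.13 and 7.20 in yolk sac cells, above every other array, and differed from the nearer tissue by 1.53 ± 0.16 (limma adjusted p = 0.0192). Of 19 measured dissociation and immediate early genes 4 were higher than the mean and 0 lower, with a median of 0.22 beside 0.05 over all genes. Myc (1.21), Atf3 (0.98) and Egr2 (0.93) were the others, and Fos, Jun and Egr1 differed by 0.30, 0.23 and 0.07 and were not called. Atf3 differed from the heart tube by 0.18 and from the yolk sac by 1.78. The summed linear level of the list was 11723 to 12756 in the caudal-half tissue, 10389 to 10427 in the heart tube and 11600 to 12022 in the yolk sac. The part of sample handling in the genes called higher was not tested. The count was 1 without the first caudal-half array, 2 without the second caudal-half or second heart tube array, and 3 otherwise.

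Genes below both other tissues were led by Dpp4 and Tbx20. Dpp4, a peptidase of the cell surface, read 2.69 and 3.48, within the bacterial range, against 6.90 and 6.81 in heart tube cells and 8.66 and 8.53 in yolk sac cells. It differed from the nearer tissue by -3.77 ± 0.27 (limma adjusted p = 0.00843), a size that its level at background leaves without an exact value. Tbx20, the T-box factor of heart muscle and endocardium, read 5.35 and 5.76 against 12.18 and 11.95 in heart tube cells and 9.31 on both yolk sac arrays. It differed from the yolk sac, the nearer tissue, by -3.76 ± 0.20 (limma adjusted p = 0.00812). The caudal-half tissue was thus lowest and the heart tube highest. Nrg1, a ligand that endocardium sends to heart muscle, read 2.33 and 3.29 against 6.88 and 6.64 in heart tube cells and 6.34 and 5.42 in yolk sac cells. Its difference was -3.07 ± 0.41 (limma adjusted p = 0.0447).

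Of 17 measured endocardial genes 9 were lower than the mean of both tissues and 0 higher, with a median of -1.57. Beyond Tbx20 and Nrg1, the called members were Gata4 (-3.37), the hyaluronan synthase gene Has2 (-2.60), Gata5 (-2.53), Adgrg6 (-2.16), Cdh11 (-1.85), Hand2 (-1.78) and Nfatc1 (-1.57). These 7 did not pass beyond both tissues, and the median over the list was -3.14 against the heart tube and -0.17 against the yolk sac. Cardiomyocyte genes went the same way in 5 of 23, among them Tnni1 (-1.91) and Myl7 (-1.87), or 1 without the second caudal-half array, with a median of -1.40 against the heart tube and 0.01 against the yolk sac. Visceral endoderm genes were lower in 13 of 23, where the median was 0.16 against the heart tube and -4.09 against the yolk sac. Ttr, the transthyretin gene, read 4.46 and 4.50 against 4.81 and 4.90 in heart tube cells and 12.31 and 12.53 in yolk sac cells. Apart from Dpp4, none of the called visceral endoderm genes was called lower than the heart tube, and Rbp4 was called higher than it (1.54).

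Many matrix genes were lower, some of them than both tissues. Of 24 measured genes of mesenchyme and matrix, 13 were lower than the mean and 1, the smooth muscle gene Tagln (1.09), was higher. The median was -1.10 (-1.41 against the heart tube and -0.99 against the yolk sac), and 5 of the 13 passed beyond both tissues, beside 0.258% of all genes. Col3a1, a fibrillar collagen, read 7.50 and 8.15 against 11.26 and 11.45 in heart tube cells and 10.36 and 10.56 in yolk sac cells, a difference of -2.64 ± 0.25 from the nearer tissue (limma adjusted p = 0.0147). Col1a2 read 7.30 and 7.80 against 9.70 and 9.82 in heart tube cells and 11.03 and 11.12 in yolk sac cells, a difference of -2.21 ± 0.21. Postn, the matricellular protein periostin, read 6.06 and 5.70 with all 4 other arrays between 8.23 and 8.64, and differed by -2.55 ± 0.22. All 3 genes lay below every other array.

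The fibril-starting collagens Col5a1 and Col5a2 differed from the nearer tissue by -2.07 and -1.64. Fibronectin (Fn1), Col6a1 and the pericyte genes Rgs5 and Pdgfrb were lower than the mean by -1.22, -1.45, -1.89 and -0.99, with caudal-half arrays below all others. Col1a1 was lower than the mean (-1.64) through the yolk sac, since it differed from the heart tube by 0.63. Pdgfra, Fbln2 and Dcn were likewise set by 1 tissue, and the other probe set of Fbln2 showed no such difference (0.10). Vim and Acta2, which were bright in all tissues, differed by -0.22 and -0.32 and were not called. The summed linear level of the 24 genes was 12920 to 13573 on the caudal-half arrays, 23126 to 24573 in heart tube cells and 23857 to 24779 in yolk sac cells. The part of mesenchymal cells carried through the sort in these differences was not tested. The count of lower members fell to 7 without the first caudal-half array.

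**Figure D4:**
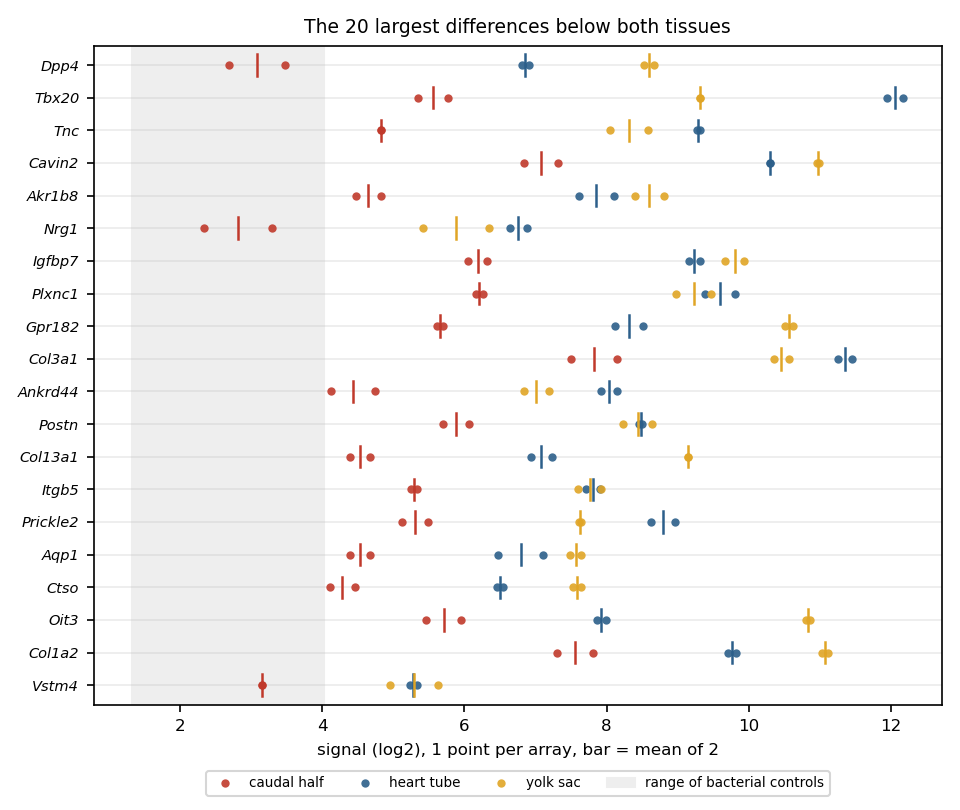
Signal (log2) of the 20 genes with the largest difference below the nearer tissue, 1 point per array and a bar at the mean of 2; grey marks the range of the bacterial controls. Caudal-half arrays (red) lie left of all others in each gene, and those of Dpp4, Nrg1 and Vstm4 lie in the grey range.

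Further secreted and surface proteins were low. Tnc, tenascin C, an adhesion-modulating matrix protein, read 4.83 on both caudal-half arrays against 9.31 and 9.27 in heart tube cells and 8.05 and 8.58 in yolk sac cells. It differed from the nearer tissue by -3.49 ± 0.21 (limma adjusted p = 0.00812). Cavin2, a coat protein of caveolae, read 6.84 and 7.31 against 10.30 on both heart tube arrays and 10.99 and 10.96 in yolk sac cells, a difference of -3.22 ± 0.20 (limma adjusted p = 0.00812). In both genes the caudal-half arrays lay below all 4 others. Igfbp7, a secreted growth factor binding protein of vessels, read 6.32 and 6.06 against 9.16 to 9.93 and differed by -3.05 ± 0.19. The semaphorin receptor gene Plxnc1 differed by -3.02 ± 0.24, and all 5 of its other probe sets differed in the same direction.

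Gpr182, a chemokine-binding receptor of endothelium, read 5.62 and 5.71 against 8.51 and 8.11 in heart tube cells and 10.51 and 10.63 in yolk sac cells, a difference of -2.65 ± 0.19 from the nearer tissue (limma adjusted p = 0.00843). Oit3 read 5.96 and 5.47 against 7.86 and 7.99 in heart tube cells and 10.81 and 10.86 in yolk sac cells and differed by -2.21 ± 0.21. In both the tissues formed 3 separate levels with the yolk sac highest. Col13a1, a collagen that spans the cell membrane, differed by -2.55, the integrin gene Itgb5 by -2.47, the planar polarity gene Prickle2 by -2.32 and the water channel gene Aqp1 by -2.26. The aldo-keto reductase gene Akr1b8 differed by -3.21, Ankrd44 by -2.58, the lysosomal protease gene Ctso by -2.22 and Vstm4 by -2.12. Another lysosomal protease gene, Ctsb, had one of the smallest differences at -1.18 ± 0.16, with values of 8.99 and 8.89 against 10.11 to 10.16 on the other 4 arrays.

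The remaining lower genes differed from the nearer tissue by -1.98 to -1.18. Gsn, the actin-severing gelsolin, read 4.12 and 4.17 against 5.67 and 6.08 in heart tube cells and 7.84 and 7.78 in yolk sac cells. The metalloproteinase inhibitor Timp2 differed by -1.81 and apolipoprotein E (Apoe) by -1.29. Mbnl3, Tmem64, Cdo1, Lbh, Gpm6b, Blvrb, Tinagl1, Tns1, Rnd2, Cemip2, Crip1, Iqgap2, Dnajb4, Rab3il1, Nrk, Senp7, Phldb2, Rcn3, Cd200r1 and Arpin made up the others, apart from Col5a2 and Ctsb given above. In 43 of the 47 lower genes all 3 tissue means were above the bacterial range, beside 22 of the 38 higher genes.

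Across the 36 gene lists, 0 of 27 cell cycle and replication genes were called in either direction by limma against the mean, with a median of 0.15, and 3 were called higher with a mean-variance trend (over all genes 3783 had an unadjusted p under 0.05). Markers of other cell types that a trunk dissection could carry were weak in part. Of 20 measured somite genes 12 and of 16 nephric genes 7 were within the bacterial range in every tissue, and 3 and 1 were called higher. Without the second caudal-half array 1 somite gene was called. Hindgut and definitive endoderm genes were called in 0 of 14 upward and 2 downward, with 6 of the 14 within the bacterial range in every tissue. Of 28 genes of lateral plate, limb and gut mesenchyme 0 were higher and 6 lower, among them Twist1 (-2.18) and Tcf21 (-2.05), and 4 of the 28 were within the bacterial range in the caudal-half tissue. None of these 6 passed beyond both tissues, and in all 6 the heart tube mean lay above the yolk sac mean. The median over the 28 was 0.26 against the heart tube and 0.22 against the yolk sac. Epcam, an epithelial adhesion molecule, was higher than the mean by 1.74, but its caudal-half arrays (7.39 and 7.60) met those of the yolk sac (6.88 and 7.40). Esrp1 (1.91) and Cdh1 (1.25) were also called higher, but Cdh1 differed from the yolk sac by -0.60. Lower calls fell on 1 epithelial gene. Over all genes 2.67% were higher and 3.22% lower. Of 19 epithelial genes 3 were called higher, and 0 without the first caudal-half array.

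**Figure D5:**
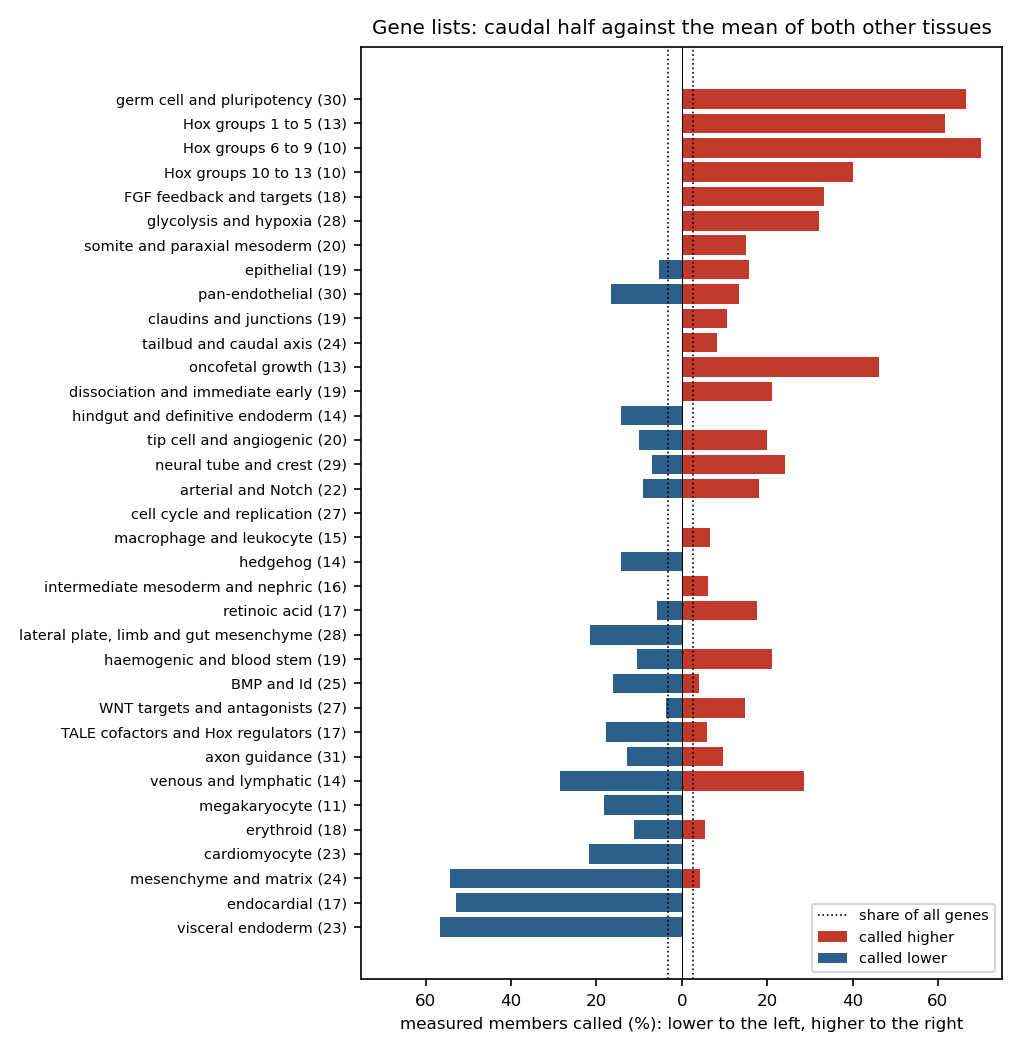
Share of measured members (number in brackets) called higher (red, to the right) or lower (blue, to the left) than the mean of both other tissues, in percent; dotted lines mark the shares over all genes, 2.67% higher and 3.22% lower. The Hox and germ cell lists reach 40 to 70% higher with none lower, and visceral endoderm, endocardial and matrix genes reach 52.9 to 56.5% lower.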

How the data were processed

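RNA of 6 sorted samples (3 tissues, 2 replicates each) was measured on Affymetrix arrays. The deposited file holds 1 intensity per probe set and array, which the authors computed by RMA with affy, per the submitters' processing notes. The log base is not stated. The deposited intensities reached 2172540, above the 65535 of a 16-bit scanner, while their natural log ran from 0.899 to 14.6, so that log was read as the authors' log2 value. Of 45101 probe sets, 34958 carried 1 gene symbol. Each gene was taken from its own probe set with the highest mean over the 6 arrays. For 14 of the genes chosen for naming another probe set differed in direction or gained a call. Not all 14 are described in the text. Kbtbd11 and Bace2 differed from the mean of both tissues by 3.06 and -3.54 but did not pass beyond both by their brightest probe sets. Dimmer probe sets did pass, by 3.56 for Kbtbd11 and by -2.79 and -2.23 for Bace2.

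A linear model with 1 mean per tissue was fitted in R 4.3.3 (limma 3.58.1) over all 6 arrays, leaving 3 residual degrees of freedom (3.48 prior). Contrasts were tested two-sided with Benjamini-Hochberg adjustment over 18193 genes, and an adjusted p under 0.05 was called. A gene beyond both tissues had the larger p of its 2 contrasts adjusted, where directions agreed. Precision is limited by the number of arrays, and p-values measure the spread between biological duplicates. The fit was tested on simulated data. Replicate numbers are shared by the tissues, but deviations of same-numbered arrays correlated at 0.0468, 0.0189 and -0.00681, and were not taken as pairs.

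Members and lists were chosen with earlier results of these data known. Genes chosen for naming were the 20 per direction farthest beyond both tissues, the 6 per direction farthest from the mean alone, up to 6 called members per list, and a fixed set. Not all of them are described in the text. The other 36 genes beyond both, and list members without a call, were named after their values were seen. Alternatives were other scalings, filters, probe set averages, eBayes settings, thresholds, the replicate block and each array left out.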

Additional observations from a re-analysis of the deposited data

How the results depend on the processing

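All 85 genes beyond both tissues kept their direction and an unadjusted p under 0.05 in each of the 16 settings, and of 3438 gene values recomputed 2345 kept their side of the threshold, 1091 lost it, 2 gained it and 0 reversed. The 85 genes were chosen on these same arrays, so their kept direction was close to fixed in advance. Counts of called genes moved more. With a mean-variance trend in eBayes 791 genes were higher than the mean of both tissues (486 without it), 74 higher than both (38) and 91 lower than both (47). With a minimum difference of 0.5 on this scale the counts were 111 higher and 187 lower than the mean, and 17 and 20 beyond both. At an adjusted p under 0.01 they were 102, 187, 5 and 8. Leaving out each array in turn gave 95 to 332 higher and 133 to 451 lower than the mean, and 0 to 19 higher and 0 to 16 lower than both, where the tissue with 1 array left is assumed to vary like the others. The mean of all probe sets gave 57 and 59 beyond both, of which 33 and 39 were among the genes called from the brightest probe set. With log2 of the deposited signal, without dim genes, with quantile normalization, median centring or robust eBayes the counts beyond both were 36 to 44 higher and 42 to 52 lower.

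With the replicate number as a block, 22 genes were higher and 24 lower than both tissues, and 341 and 464 against the mean. The numbers do not pair the samples by any label, and the deviations of same-numbered arrays did not correlate above 0.1 in any pair of tissues.

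With 2 arrays per tissue, differences from the nearer tissue under 1.18 were not called, and no list of genes was tested. The base of the deposited scale is not stated. Changed shares of cells and changed RNA per cell cannot be told apart in sorted bulk tissue.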

Other observations

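Several signalling lists had called members in the caudal-half tissue that did not lie beyond both other tissues. Of 18 measured genes of FGF feedback, 6 were higher than the mean of both tissues and 0 lower, against 2.67% and 3.22% of all genes. The median of these 18 genes was 0.53. The 6 higher genes were the inhibitors Spry1 (1.61), Spry4 (0.90) and Spry2 (0.67), the phosphatase genes Dusp4 (1.02) and Dusp6 (0.74), and the ETS factor Etv5 (0.89). The ligand gene Fgf8 read 4.36 and 4.14 against 3.80 to 4.27 elsewhere and was not called (0.15). Leaving out 1 array lowered the count to between 0 and 2, the fewest without the first caudal-half array. Of 17 retinoic acid genes, the binding proteins Crabp1 (2.35 ± 0.24) and Crabp2 (2.16 ± 0.26) and the catabolic enzyme Cyp26a1 (2.03 ± 0.22) were higher, and Rbp4 was lower (-2.41) through the yolk sac. Without the first caudal-half array 0 of the 3 were called. Among 27 WNT targets and antagonists, Lef1 (2.28), Sfrp2 (1.97), Axin2 (1.65) and Rspo3 (0.93) were higher and the antagonist gene Dkk1 lower (-1.51). Dkk1 differed from the heart tube by -2.91 and from the yolk sac by -0.12, with the caudal-half and yolk sac means within the bacterial range. Axin2 read 7.85 and 7.80 against 7.05 and 7.04 in heart tube cells and 5.09 and 5.52 in yolk sac cells. Without the first caudal-half array 0 of these 4 were called higher.

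Growth regulators of early embryos were higher in 6 of 13 genes and lower in 0, although their median was 0.24. Lin28a, the inhibitor of let-7 processing, read 10.71 and 10.84 against a mean of 8.22 in heart tube cells and 9.76 and 9.57 in yolk sac cells. Sall4 (1.34), Myc (1.21), Mycn (1.09), Trim71 (0.79) and Hmga2 (0.73) were the others. Hmga2 differed from the heart tube by 0.23 and from the yolk sac by 1.23. Of the other probe sets of Mycn, 1 lay in the opposite direction (-0.14). Lin28a and Sall4 are also on the germ cell list. Leaving out 1 array left 2 to 4 of the 13 called, the fewest without the first caudal-half array. Vessel identity genes were split. Of 14 venous and lymphatic genes 4 were higher, such as the podoplanin gene Pdpn (1.94) and the apelin receptor gene Aplnr (0.93), and 4 lower, among them Mrc1 (-4.07), Stab2 (-2.41) and Lyve1 (-2.28). Pdpn differed from the yolk sac by -0.14 and Aplnr by -0.35, while Stab2 and Lyve1 differed from the heart tube by 0.97 and 0.35, so each of these 4 was set by 1 tissue. Without the first caudal-half array 0 of the venous and lymphatic genes were called higher and 2 lower.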
